A study of Mus musculus with 9 samples.

Results

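The genes described here are 32 genes of the B cell lineage, taken by symbol from the 18830 genes that each library lists. B cell genes make up 24 of them, and plasma cell genes make up 8. They were followed in 9 RNA-seq libraries of the abdominal aorta of ApoE knockout mice, 3 from sham controls, 3 from mice on Ang II for 14 days and 3 from mice on Ang II for 28 days. All 32 were listed in every library, and 31 passed the filter on low counts, the exception being Tnfrsf17. Each group is described as 3 libraries, numbered as the labels number them.

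Every mouse in the series, shams included, carries the ApoE knockout, which raises plasma lipids and makes the aorta prone to lesions. Ang II (angiotensin II, a peptide that raises blood pressure) was given at 1000 ng/kg/min from an implanted osmotic pump, with saline as the control described for the series. The tissue was the suprarenal abdominal aorta, the stretch in which this model forms aneurysms, and it was sequenced whole, so that any cell on or around the vessel wall contributes. The sources used here give no sham time point, no strain, sex or age, no aneurysm diameter per library, and no statement on pooling or on separate animals. The p-values therefore measure the spread between these libraries. The labels call the samples both muscle and aorta, and the 6 smooth muscle markers summed to 9250 to 27940 CPM (counts of a library scaled to a common total) in the shams, 3511 to 16055 CPM at 14 days and 1957 to 5998 CPM at 28 days. These markers of the main cell type of the wall were therefore lower in every 28-day library than in any sham. Fewer smooth muscle cells and less marker RNA per cell cannot be told apart here, and their part in the members' values was not tested.

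B cells recognise antigen through a surface antibody that signals through the paired chains CD79A and CD79B. The kinases LYN, SYK and BTK and the adaptor BLNK carry that signal inwards, and inhibitory coreceptors such as CD22 lower it. PAX5, EBF1, SPIB and the pair OCT2 (Pou2f2) and OBF1 (Pou2af1) maintain the B cell programme. When a B cell becomes a plasma cell, IRF4 and BLIMP1 (Prdm1) silence that programme, surface CD20 and CXCR5 are lost, and the secretory machinery that loads antibody with the J chain is expanded. In arteries of ApoE knockout mice, B cells and plasma cells are known mainly from the adventitia and from lymphoid clusters beside the vessel.

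The factors that maintain the B cell programme bind known DNA motifs, and the genes of OCT2, OBF1 and SPIB are themselves members, so the members' promoters were searched for those motifs. RefSeq promoter windows of build GRCm38.p6 (250 bases before to 50 after each start) were found for 26 members, 28 windows in all. Blk, Ms4a1, Cd24a, Mzb1, Cd79b and Cxcr5 had none. The octamer ATGCAAAT, which OCT2 binds with OBF1, was present on either strand in 2 of the 28 windows (7.14%), those of Vpreb3 and Blnk, against 1.74% of all 32851 windows. The PU box GAGGAAGT, bound by SPIB and PU.1, was present in 2 (7.14%), those of Cd72 and Cd37, against 3.20% of all windows. The EBF1 core CCCNNGGGA was present in 2 (7.14%), those of Cd22 and Sdc1, a share near the 6.56% of all windows, and the Cd22 window holds 2 overlapping matches. The member share of each motif rests on 2 windows, and no difference from all windows was tested. The 100 bases before the window's start are shown for 1 window of each motif, on the gene's strand with the match in capitals, here in its reverse complement form. They lie at chr10:75948200-75948299 (plus strand) for Vpreb3, chr7:30879029-30879128 (minus strand) for Cd22 and chr4:43454627-43454726 (minus strand) for Cd72. Each stretch lies inside the annotated span of its gene, which is 75943024-75949657 for Vpreb3, 30865404-30880342 for Cd22 and 43447724-43455102 for Cd72. The starts used are therefore internal ones and not the outermost start of the gene.
Vpreb3, octamer: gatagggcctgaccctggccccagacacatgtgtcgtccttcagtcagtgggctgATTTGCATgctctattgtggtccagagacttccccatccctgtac
Cd22, EBF1 core: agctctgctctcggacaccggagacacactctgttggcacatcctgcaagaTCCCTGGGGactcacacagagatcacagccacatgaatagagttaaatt
Cd72, PU box: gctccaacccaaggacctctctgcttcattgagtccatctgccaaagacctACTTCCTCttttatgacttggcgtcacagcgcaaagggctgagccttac
A match is a string of letters, not a measured binding site, and the other members' windows hold none of these exact strings.

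The libraries held between 9609690 and 14923936 counts, so that 1 count is worth 0.068 to 0.109 CPM and a count of 0 allows up to 0.204 to 0.328 CPM. Apoe itself was between 22.5 and 648 CPM, and the counts do not show which part of the transcript remains. Several libraries stand apart in ways that touch the members. The 14 T cell markers summed to 1431 CPM in 14-day replicate 3 and 494 CPM in 28-day replicate 2, against 19.9 to 170 CPM in the other libraries. The 9 lymph node stroma and vessel markers in the files summed to 858 and 1142 CPM in the same libraries, against 168 to 434 CPM elsewhere, and all 9 were highest in one of them. The 10 macrophage markers summed to 18188 CPM in 14-day replicate 2, against 477 to 4944 CPM elsewhere. The 5 sympathetic nerve markers summed to 5842 CPM in sham replicate 2, against 1.6 and 77.8 CPM in the other shams. They also summed to 2650 CPM in 28-day replicate 2, 2213 CPM in 14-day replicate 1 and 1222 CPM in 28-day replicate 3. The other Ang II libraries had 12.9 to 180 CPM. The 5 skeletal muscle markers summed to 10511 CPM in 28-day replicate 1 and 3785 CPM in 28-day replicate 2, against 3.43 to 75.7 CPM elsewhere. The sources do not state whether lymph node or skeletal muscle tissue was taken with an aorta. The labels give no batch, and the part of these cells in the members' values was not tested.

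Transcripts of most B cell genes were scarce in sham aorta and far more abundant in 2 of the 6 Ang II libraries. The 24 B cell genes summed to 112, 268 and 77.7 CPM in the shams, to 343, 631 and 2905 CPM after 14 days, and to 186, 2399 and 511 CPM after 28 days. These sums include genes that other cells express too. Cd24a alone gave 216 of the 268 CPM in sham replicate 2 and 171 of the 343 CPM in 14-day replicate 1. In 14-day replicate 2, which had the most macrophage transcripts, Cd72 was at 199 CPM, Cd37 at 123 CPM and Blnk at 95.2 CPM. Ms4a1 was at 3.53 CPM and Pax5 at 1.58 CPM in that library. 14-day replicate 3 was the highest of its group in 21 of the 24 genes, and over all 24 its level was a median of 18.1 times the higher of the other 14-day libraries. In 28-day replicate 2 all 24 were the highest of the group, by a median of 7.11 times the next. Within sham the highest library exceeded the lowest by a median of 2.78 times, within 14 days by 23.1 times and within 28 days by 22.8 times. The 8 plasma cell genes summed to 89.8, 52.5 and 63.9 CPM in the shams, 199, 394 and 257 CPM after 14 days, and 150, 575 and 275 CPM after 28 days, with all 6 Ang II libraries above the shams. These sums too include genes that other cells express. Sdc1 and Cd38 were at 187 and 118 CPM in 14-day replicate 2, 78.3 and 37.6 CPM in 14-day replicate 1, and 51.0 and 41.4 CPM in 28-day replicate 1. In 28-day replicate 2, Jchain gave 372 of the 575 CPM. In whole tissue, more cells of a type and more RNA per cell cannot be told apart.

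**Figure D1:**
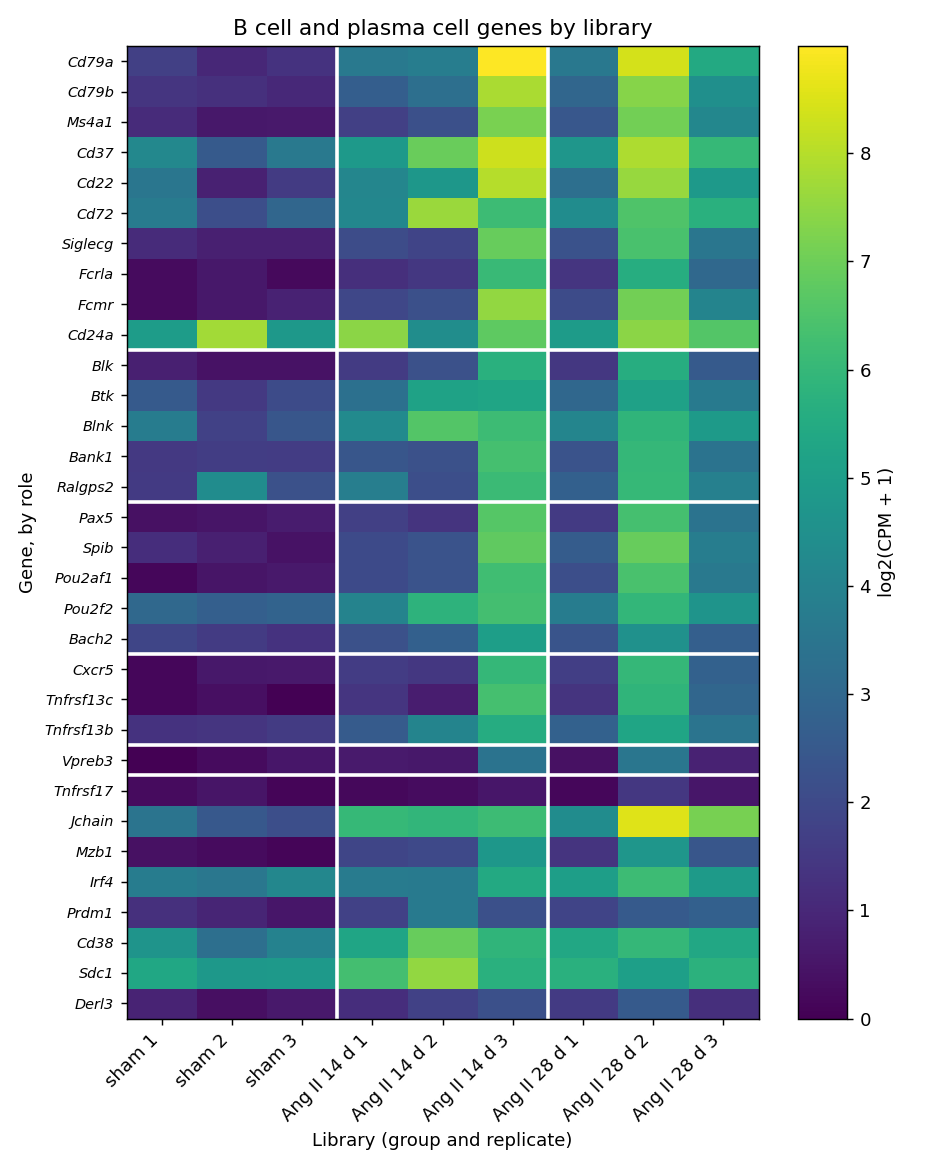
Level of each of the 32 genes in each of the 9 libraries, as log2(CPM + 1) on a colour scale, with rows grouped by role (white lines) and columns grouped as sham, 14 days and 28 days. The columns of 14-day replicate 3 and 28-day replicate 2 are bright across the B cell rows, with summed levels of 2905 and 2399 CPM, while the plasma cell rows at the bottom are more even.

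No member passed edgeR's quasi-likelihood test at an adjusted p of 0.05 in any of the 3 comparisons, and 0% of the 14741 genes tested did. The lowest adjusted p among the members was 0.117 at 14 days and 0.203 at 28 days against sham. At an unadjusted p of 0.05, 27 of the 31 tested members were higher at 14 days, where 13.1% of all genes tested were, and 27 were higher at 28 days, where 7.96% of all genes were. DESeq2 called 26 members higher at 14 days, against 8.6% of all genes, and 23 at 28 days, against 3.89% of all genes. limma-voom called 0 members, with 10 and 7 members higher at an unadjusted p of 0.05, against 9.92% and 4.93% of all genes. Both Ang II groups are compared with the same 3 shams.

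The groups can also be compared library by library. All 3 libraries at 14 days were above all 3 shams for 28 of the 32 genes, against 12.6% of all genes tested. At 28 days this held for 26 of the 32, against 12.2% of all genes. All 6 Ang II libraries were above every sham for 25 of them, 20 B cell and 5 plasma cell genes, against 8.57% of all genes. The exceptions in at least 1 comparison were Cd22, Cd24a, Ralgps2, Vpreb3, Tnfrsf17, Irf4 and Sdc1.

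Leaving out 1 library moved the counts of members at an unadjusted p of 0.05 against sham by more than 1.5 times in 6 cases, while edgeR still called 0 members. The 27 members at an unadjusted p of 0.05 at 14 days became 12 without 14-day replicate 3 (11.4% of all genes), 17 without sham replicate 2 (10.8%) and 16 without sham replicate 3 (9.81%). The 27 at 28 days became 8 without 28-day replicate 2 (4.79% of all genes), 13 without sham replicate 2 (6.92%) and 15 without sham replicate 3 (5.70%). Fold changes moved too. Without 14-day replicate 3, 18 of the 24 B cell genes and 2 of the 7 tested plasma cell genes had a 14-day log2 fold change lower by more than 1.5 times. Without 28-day replicate 2 this was so for 20 and 1 of them at 28 days.

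The comparison was also repeated without 14-day replicate 3 and 28-day replicate 2, a choice made after the values were seen. The median log2 fold change of the B cell genes against sham went from 4.89 to 2.38 at 14 days and from 4.68 to 2.76 at 28 days. edgeR again called 0 members, with 25 of 30 tested members higher at 14 days at an unadjusted p of 0.05, where 11.1% of all genes were, and 21 at 28 days, where 5.89% were. Both libraries were left out because of their high member values, which can also lower the spread that all groups share. These counts therefore cannot show whether the rise holds without the pair. Without 14-day replicate 3 alone, 12 members were higher at 14 days (11.4% of all genes). Without 28-day replicate 2 alone, 8 were higher at 28 days (4.79%). The medians over all genes tested were -0.07 and -0.08 with all libraries, and -0.10 and -0.05 without the pair. The 4 Ang II libraries that remained summed to between 186 and 631 CPM over the 24 genes, against 77.7 to 268 CPM in sham. Genes that other cells express too, such as Cd24a, Cd72 and Cd37, are part of these sums.

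Among the receptor genes, both chains of the B cell receptor complex had the same highest libraries, in the order 14-day replicate 3, 28-day replicate 2 and 28-day replicate 3. Cd79a (Entrez 12518, chr7:24897497-24901858), the CD79A signalling chain, was at 2.24, 1.001 and 1.51 CPM in the shams, 11.6, 12.97 and 509 CPM after 14 days, and 11.2, 344 and 43.4 CPM after 28 days. Cd79b (Entrez 15985, chr11:106311341-106314562), its partner chain, was at 1.6, 1.36 and 1.07 CPM in the shams, 5.4, 8.64 and 227 CPM after 14 days, and 6.79, 165 and 21.03 CPM after 28 days. All Ang II libraries lay above the shams for both, and 28-day replicate 3 lay between the pair of high libraries and the rest. In what follows, a log2 fold change is from edgeR against sham with its SE, over 3 libraries a group. That of Cd79a was 6.82 ± 2.07 at 14 days and 6.4 ± 2.03 at 28 days, and the values of Cd79b were 5.9 ± 1.89 and 5.58 ± 1.86. Without 14-day replicate 3 the 14-day value of Cd79a was 2.96, and without 28-day replicate 2 its 28-day value was 4.12.

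**Figure D2:**
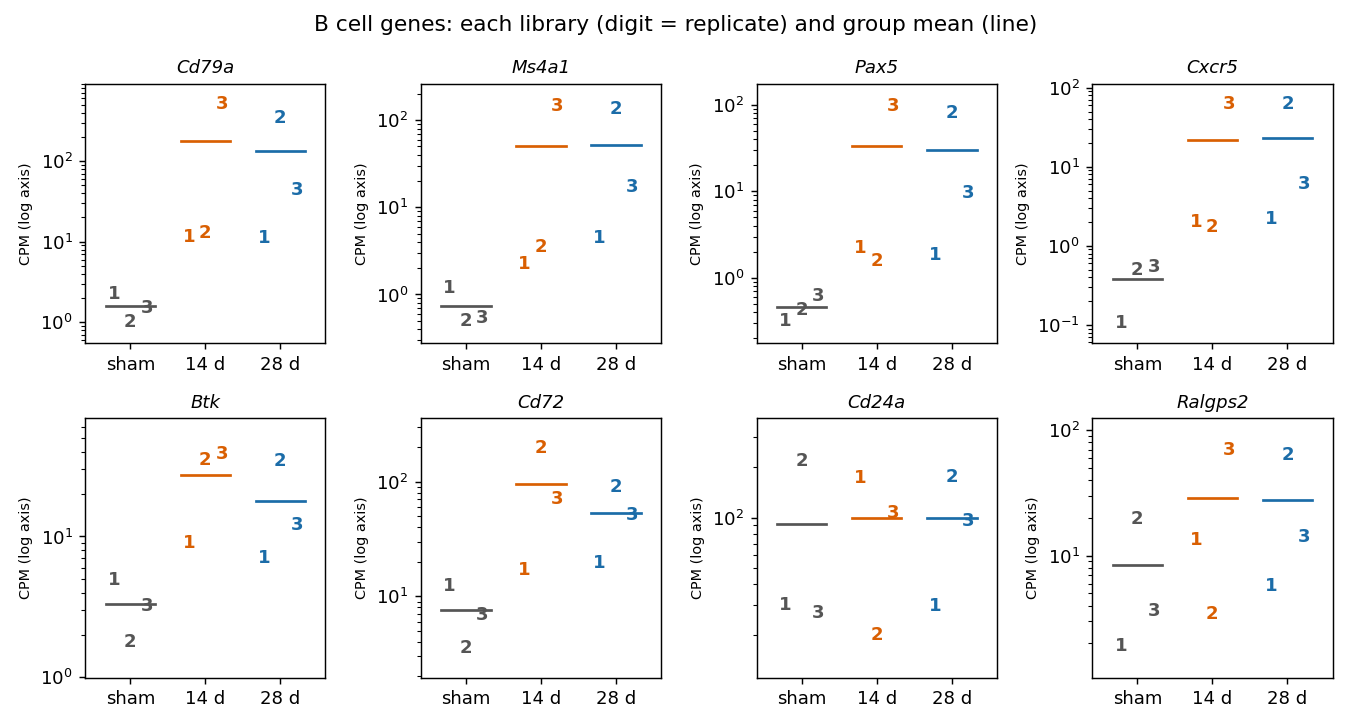
CPM on a log axis for 8 B cell genes in each library, where the digit is the replicate number and the line is the group mean. For Cd79a, Ms4a1, Pax5 and Cxcr5, replicate 3 at 14 days and replicate 2 at 28 days stand far above the others, Cd72 peaks in replicate 2 at 14 days at 199 CPM, and Cd24a and Ralgps2 overlap between groups.

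Ms4a1 (chr19:11249679-11266149) encodes CD20, the surface protein targeted by B cell depleting antibodies, and was at 1.17, 0.501 and 0.534 CPM in the shams, 2.24, 3.53 and 146 CPM after 14 days, and 4.49, 133 and 17.1 CPM after 28 days. Fcmr (chr1:130865777-130880790), the receptor for secreted IgM, was at 0.213, 0.501 and 0.801 CPM in the shams, 2.8, 3.53 and 186 CPM after 14 days, and 3.17, 134 and 15.8 CPM after 28 days. Fcrla, an Fc receptor-like protein kept inside B cells, was at 0.213, 0.501 and 0.178 CPM in the shams, 1.33, 1.73 and 67.95 CPM after 14 days, and 1.64, 47.3 and 7.29 CPM after 28 days. Sham values of these 3 genes were at most 1.17 CPM, at 2 to 11 counts, and no Ang II library overlapped them. Their log2 fold changes were 6.12 ± 2.09, 6.94 ± 2.28 and 6.23 ± 2.05 after 14 days, then 6.15 ± 2.1, 6.6 ± 2.25 and 5.89 ± 2.03 after 28 days. For Ms4a1 the 14-day value was 1.98 without 14-day replicate 3, and the 28-day value was 3.89 without 28-day replicate 2.

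The inhibitory coreceptors split into genes that tracked Cd79a and genes that did not. Siglecg, a sialic acid-binding inhibitor of B cell receptor signals, was at 1.17, 0.715 and 0.712 CPM in the shams, 3.22, 2.59 and 119 CPM after 14 days, and 3.83, 83.2 and 10.5 CPM after 28 days. Cd22 (chr7:30865404-30880342), another sialic acid-binding inhibitor, was at 10.5, 0.787 and 1.96 CPM in the shams, 16.3, 26.1 and 254 CPM after 14 days, and 8.65, 194 and 28.1 CPM after 28 days. Siglecg kept its groups apart, whereas Cd22 in sham replicate 1, at 10.5 CPM, exceeded 28-day replicate 1, at 8.65 CPM. Cd72 (chr4:43447724-43455102), an inhibitory lectin-like receptor found on B cells and some macrophages, was at 12.3, 3.5 and 6.85 CPM in the shams, 17.1, 199 and 71.01 CPM after 14 days, and 19.6, 89.5 and 51.3 CPM after 28 days. Cd37, a tetraspanin of B cells and other leukocytes, was at 17.2, 4.86 and 11.3 CPM in the shams, 28.2, 123 and 316 CPM after 14 days, and 25.7, 235 and 64.6 CPM after 28 days. Cd72 was highest in 14-day replicate 2, the library with the most macrophage transcripts, and Cd37 was second highest of its group there. The log2 fold changes were 5.59 ± 1.91, 4.5 ± 1.68, 3.67 ± 0.98 and 3.81 ± 1.11 at 14 days, in the order Siglecg, Cd22, Cd72 and Cd37. At 28 days they were 5.23 ± 1.89, 4.14 ± 1.65, 2.83 ± 0.95 and 3.29 ± 1.09. Siglecg had a log2 fold change of 1.75 at 14 days without 14-day replicate 3 and of 3.05 at 28 days without 28-day replicate 2. edgeR's adjusted p over the receptor genes without Cd24a ran from 0.117 (Cd72) to 0.166 (Cd22) at 14 days and from 0.240 (Cd79a) to 0.320 (Cd22) at 28 days.

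Cd24a, which encodes the heat-stable antigen of immature B cells and also of neurons and epithelium, was at 30.4, 216 and 26.96 CPM in the shams, 171, 20.1 and 107 CPM after 14 days, and 29.8, 173 and 95.1 CPM after 28 days. Its highest library was sham replicate 2, and its log2 fold change was 0.12 ± 1.05 at 14 days (edgeR adjusted p = 0.952) and 0.13 ± 1.05 at 28 days (adjusted p = 0.978). Without sham replicate 2 these were 1.79 and 1.79, and the highest values of Cd24a, 216, 173 and 171 CPM, fell in the 3 libraries with the most sympathetic nerve transcripts. The part of nerve tissue in Cd24a was not tested.

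Among the signalling genes, the kinases Blk and Btk ranked the libraries differently. Blk, a SRC-family kinase largely restricted to B cells, was at 0.746, 0.358 and 0.356 CPM in the shams, 1.96, 3.67 and 50.8 CPM after 14 days, and 1.75, 47.9 and 4.86 CPM after 28 days. Btk (chrX:134542334-134583628), the Bruton tyrosine kinase of B cells and myeloid cells, was at 4.9, 1.79 and 3.2 CPM in the shams, 9.04, 35.1 and 38.4 CPM after 14 days, and 7.01, 34.3 and 12.1 CPM after 28 days. Blnk, the adaptor that links SYK to BTK and is also found in macrophages, was at 12.8, 2.36 and 4.27 CPM in the shams, 18.7, 95.2 and 70.1 CPM after 14 days, and 15.9, 57.8 and 28.5 CPM after 28 days. Blk was far above its group in the same pair of libraries as Cd79a, while Btk stood at nearly the same level in 14-day replicates 2 and 3, and Blnk peaked in replicate 2. Bank1, a scaffold of B cell receptor signalling, was at 1.81, 2.07 and 2.05 CPM in the shams, 4.34, 3.67 and 80.8 CPM after 14 days, and 3.94, 63.3 and 9.72 CPM after 28 days. The log2 fold changes of Blk, Btk, Blnk and Bank1 were 5.27 ± 1.76, 3.06 ± 0.78, 3.25 ± 0.86 and 3.9 ± 1.5 at 14 days, with edgeR adjusted p from 0.117 to 0.175. At 28 days they were 5.23 ± 1.76, 2.44 ± 0.76, 2.41 ± 0.83 and 3.69 ± 1.48, with adjusted p from 0.237 to 0.325. The value of Bank1 was 1.01 at 14 days without 14-day replicate 3 and 1.79 at 28 days without 28-day replicate 2.

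Ralgps2, an exchange factor for RAL GTPases expressed in B cells and other tissues, ranged from 1.92 to 19.7 CPM in sham, 3.46 to 69.2 CPM at 14 days and 5.69 to 63.6 CPM at 28 days. Its groups overlapped, and its sham maximum was in the nerve-rich replicate 2. The log2 fold changes were 1.76 ± 1.34 (edgeR adjusted p = 0.468) and 1.72 ± 1.34 (adjusted p = 0.693). Without 14-day replicate 3 the first was -0.01.

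The transcription factors differed in the size of their fold changes. Pax5 (chr4:44524748-44710694), which fixes B cell identity, was at 0.32, 0.429 and 0.623 CPM in the shams, 2.24, 1.58 and 97.8 CPM after 14 days, and 1.86, 79.8 and 9.64 CPM after 28 days. Spib, an ETS factor of B cells and plasmacytoid dendritic cells, was at 1.28, 0.715 and 0.356 CPM in the shams, 3.01, 3.96 and 111 CPM after 14 days, and 5.14, 120 and 13.1 CPM after 28 days. Pou2af1 (chr9:51213690-51240079), the OBF1 coactivator of octamer promoters, was at 0.107, 0.429 and 0.534 CPM in the shams, 3.08, 3.96 and 74.4 CPM after 14 days, and 3.5, 83.9 and 11.5 CPM after 28 days. These 3 genes were below 1.3 CPM in every sham, and their 14-day and 28-day libraries did not overlap the shams. Pou2f2, which encodes OCT2 and is also used by macrophages, was at 7.25, 5.58 and 6.32 CPM in the shams, 15.3, 55.3 and 78.6 CPM after 14 days, and 12.6, 61.1 and 24.3 CPM after 28 days. Bach2, a repressor that holds back plasma cell differentiation, was at 2.66, 1.93 and 1.51 CPM in the shams, 3.64, 5.83 and 31.8 CPM after 14 days, and 4.05, 22.3 and 5.62 CPM after 28 days. Pou2f2 stood between 5.58 and 7.25 CPM in sham already, and the fold changes of Pou2f2 and Bach2 were smaller than those of the other factors. The log2 fold changes of Pax5, Spib, Pou2af1, Pou2f2 and Bach2 were 6.17 ± 2.14, 5.65 ± 1.91, 6.17 ± 1.86, 2.96 ± 0.72 and 2.76 ± 0.98 at 14 days (edgeR adjusted p from 0.117 to 0.155). At 28 days they were 6.02 ± 2.12, 5.88 ± 1.93, 6.46 ± 1.87, 2.36 ± 0.71 and 2.39 ± 0.97 (adjusted p from 0.221 to 0.330). Pax5 had a log2 fold change of 2.03 at 14 days without 14-day replicate 3 and of 3.62 at 28 days without 28-day replicate 2.

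**Figure D3:**
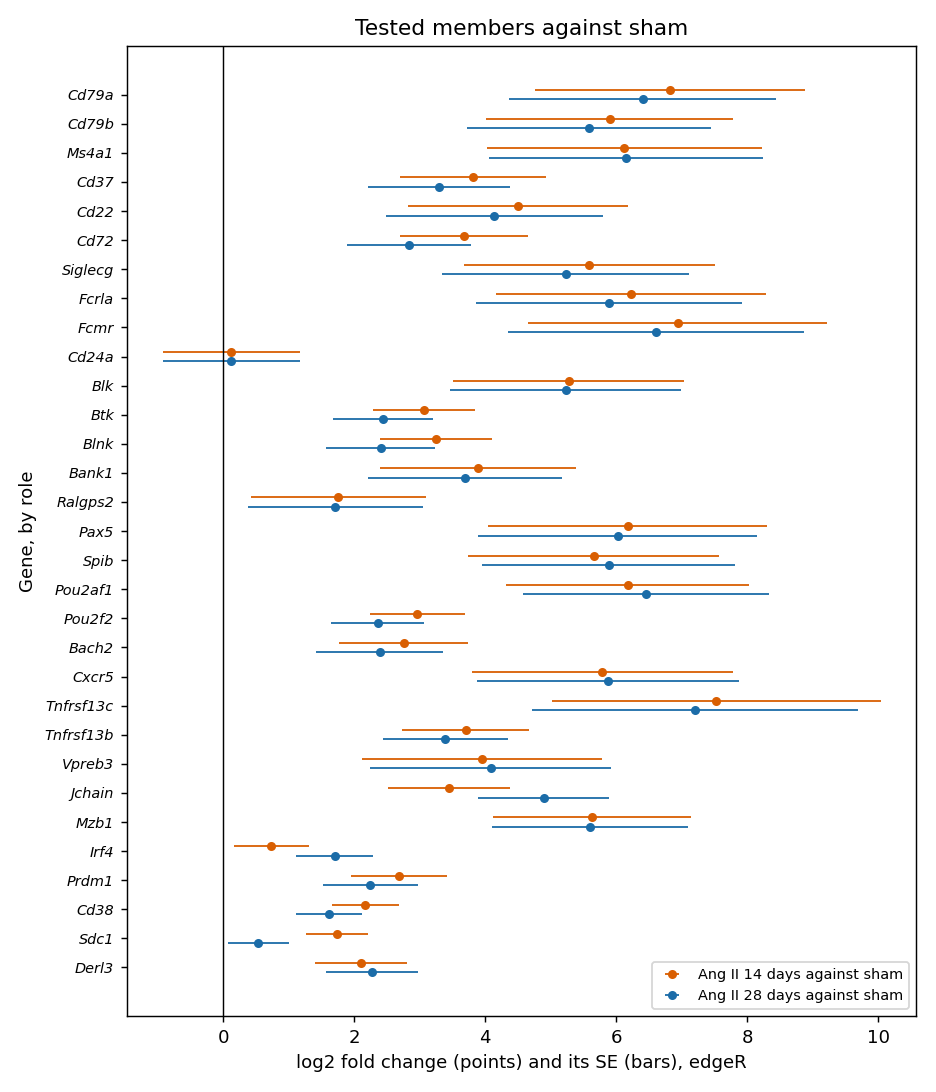
Log2 fold change of the 31 tested genes against sham at 14 days (orange) and 28 days (blue), with bars of 1 SE from edgeR. All points lie right of 0, the B cell genes reach 7.53 with SEs up to 2.51, and Cd24a lies at 0.12 and 0.13.

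Transcripts of the follicle-homing and survival receptors were near the limit of detection in sham for 2 of the 3 genes. Cxcr5, the receptor that draws B cells into follicles, was at 0.107, 0.501 and 0.534 CPM in the shams, 2.03, 1.73 and 62.7 CPM after 14 days, and 2.19, 62.1 and 5.998 CPM after 28 days. Tnfrsf13c (chr15:82221742-82224380), the BAFF receptor that keeps mature B cells alive, was at 0.107, 0.286 and 0 CPM in the shams, 1.61, 0.648 and 80.4 CPM after 14 days, and 1.53, 57.8 and 6.83 CPM after 28 days. Tnfrsf13b, which encodes TACI, a receptor for BAFF and APRIL, was at 1.49, 1.65 and 1.96 CPM in the shams, 5.04, 15.7 and 46.1 CPM after 14 days, and 5.91, 37.6 and 10.1 CPM after 28 days. All 3 genes had every Ang II library above the shams. The 3 sham libraries held 1, 4 and 0 counts of Tnfrsf13c, so its log2 fold changes of 7.53 ± 2.51 and 7.21 ± 2.49 rest on few sham counts. Those of Cxcr5 were 5.79 ± 1.99 and 5.87 ± 1.998, and those of Tnfrsf13b were 3.71 ± 0.97 and 3.39 ± 0.96. edgeR's adjusted p for the 3 genes ran from 0.117 to 0.148 for the first comparison and from 0.217 to 0.260 for the second.

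Vpreb3, a chaperone-like partner of immunoglobulin light chains in precursor B cells, was at 0, 0.215 and 0.445 CPM in the shams, 0.561, 0.504 and 9.84 CPM after 14 days, and 0.328, 10.7 and 0.835 CPM after 28 days. At 28 days replicate 1, at 0.328 CPM, lay below sham replicate 3, at 0.445 CPM, and edgeR's unadjusted p was 0.0625 at 14 days and 0.0570 at 28 days. DESeq2 gave no adjusted p for Vpreb3.

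Scaled to the merged length of all annotated exons of a gene, Cd79a had the highest value of the B cell genes in both high libraries. The merged length can exceed that of the transcript expressed, so genes are compared only roughly. It reached 349 CPM per kilobase in 14-day replicate 3 and 236 in 28-day replicate 2, while Cd79b reached 159 and 115, Fcmr 107 and 76.9, Cd37 89.8 and 66.6, Ms4a1 23.6 and 21.5, and Pax5 11.0 and 9.01 CPM per kilobase. Relative to the pan-leukocyte gene Ptprc, the CPM of Cd79a was 0.0746 to 0.0955 in sham, 1.38 in 14-day replicate 3 and 1.39 in 28-day replicate 2. It was 0.068 in 14-day replicate 2, which is no higher than in sham, 0.212 in 14-day replicate 1, and 0.232 and 0.401 in 28-day replicates 1 and 3. The ratio of Cd79a to Cd79b in CPM was 0.737 to 1.42 in sham and 1.5 to 2.24 in the Ang II libraries.

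Set beside T cells, 14-day replicate 3 had the lowest ratio of the summed B cell genes to the summed T cell markers of the 9 libraries. Cd24a weighs on this ratio, as it gave 216 of the 268 CPM in sham replicate 2 and 171 of the 343 CPM in 14-day replicate 1. The 24 B cell genes summed to 2.03 times the 14 T cell markers in 14-day replicate 3 to 4.86 times in 28-day replicate 2, and to between 3.003 and 10.9 times in the other libraries. By the ratio of Cd79a to Cd3e, 14-day replicate 3 was not the lowest. That ratio was 9.17 in 14-day replicate 3 and 24.8 in 28-day replicate 2. It was 1.4 to 4.25 in sham, 5.32 and 2.47 in 14-day replicates 1 and 2, and 14.6 and 9.06 in 28-day replicates 1 and 3. All 14 T cell markers were highest in 14-day replicate 3, whereas 3 B cell genes, Spib, Pou2af1 and Vpreb3, were highest in 28-day replicate 2.

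**Figure D4:**
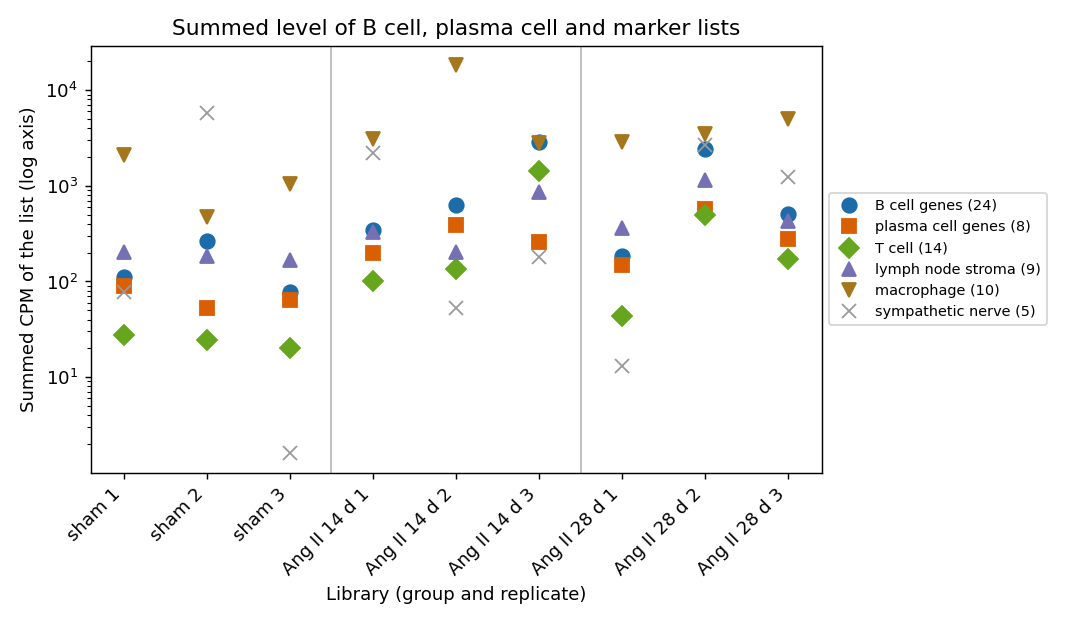
Summed CPM on a log axis of the 24 B cell genes, the 8 plasma cell genes and 4 marker lists in each library. The B cell sums of 2905 and 2399 CPM coincide with the highest T cell and lymph node stroma sums, and the plasma cell sums stay between 150 and 575 CPM in the Ang II libraries.

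The plasma cell genes did not share 1 pattern. Jchain (chr5:88519809-88527897), the joining chain of polymeric antibodies, was at 10.02, 4.51 and 3.47 CPM in the shams, 64.5, 60.2 and 70.7 CPM after 14 days, and 19.6, 372 and 140 CPM after 28 days. Mzb1, a chaperone of antibody assembly in marginal zone B cells and plasma cells, was at 0.32, 0.215 and 0.089 CPM in the shams, 2.66, 2.95 and 26.2 CPM after 14 days, and 1.53, 25.2 and 4.33 CPM after 28 days. Derl3, part of the machinery that clears misfolded proteins from the endoplasmic reticulum, was at 0.852, 0.286 and 0.534 CPM in the shams, 1.26, 2.31 and 3.6 CPM after 14 days, and 1.86, 4.87 and 1.29 CPM after 28 days. Every Ang II library lay above every sham for all 3 genes. The 14-day libraries of Jchain were within 60.2 to 70.7 CPM although Cd79a ranged from 11.6 to 509 CPM in them, whereas at 28 days Jchain ran from 19.6 to 372 CPM. The ratio of Jchain to Cd79a was 5.58, 4.64 and 0.139 in 14-day replicates 1 to 3, 1.75, 1.08 and 3.22 in 28-day replicates 1 to 3, and 2.29 to 4.5 in sham. Mzb1 instead followed Cd79a into 14-day replicate 3 and 28-day replicate 2.

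The log2 fold changes of Jchain, Mzb1 and Derl3 were 3.45 ± 0.93, 5.63 ± 1.5 and 2.1 ± 0.70 at 14 days (edgeR adjusted p of 0.117, 0.117 and 0.142). At 28 days they were 4.89 ± 1.00, 5.6 ± 1.5 and 2.27 ± 0.70 (adjusted p of 0.203, 0.217 and 0.234). Jchain at 28 days had the lowest unadjusted p of any member, 0.00118, and without 28-day replicate 2 its log2 fold change was 3.74. Per kilobase of exon, Jchain reached 148 CPM in 28-day replicate 2 and 28.1 CPM in 14-day replicate 3.

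Irf4, a factor of activated B cells, plasma cells, T cells and macrophages, was at 12.8, 10.8 and 16.7 CPM in the shams, 12.3, 11.96 and 43.04 CPM after 14 days, and 31.6, 71.5 and 28.5 CPM after 28 days. Its 14-day replicates 1 and 2 lay within the sham range, and its 28-day libraries were all above sham. Prdm1, which encodes BLIMP1, was at 1.39, 0.93 and 0.445 CPM in the shams, 2.31, 11.96 and 3.6 CPM after 14 days, and 2.63, 4.8 and 5.69 CPM after 28 days. Cd38, an ectoenzyme of plasma cells, B cells and macrophages, was at 23.98, 8.65 and 14.9 CPM in the shams, 37.6, 118 and 58.2 CPM after 14 days, and 41.4, 62.8 and 41.1 CPM after 28 days. Sdc1, the CD138 proteoglycan of plasma cells, epithelium and other cells, was at 40.3, 26.7 and 27.7 CPM in the shams, 78.3, 187 and 50.7 CPM after 14 days, and 51.01, 32.5 and 53.99 CPM after 28 days. Prdm1, Cd38 and Sdc1 were highest in the macrophage-rich 14-day replicate 2, in which Cd79a was at 13.0 CPM and Mzb1 at 2.95 CPM. The part of macrophages in these values was not tested. The log2 fold changes of Irf4, Prdm1, Cd38 and Sdc1 were 0.74 ± 0.58, 2.69 ± 0.74, 2.17 ± 0.51 and 1.74 ± 0.47 at 14 days, with edgeR adjusted p of 0.478 for Irf4 and 0.117 for the others. At 28 days they were 1.71 ± 0.59, 2.25 ± 0.73, 1.62 ± 0.50 and 0.54 ± 0.46, with adjusted p of 0.260, 0.243, 0.234 and 0.731. Without 14-day replicate 3 the 14-day value of Irf4 was -0.15.

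Tnfrsf17, which encodes BCMA, the survival receptor of long-lived plasma cells, was at 0.213, 0.429 and 0.089 CPM in the shams, 0.14, 0.216 and 0.475 CPM after 14 days, and 0.109, 1.72 and 0.456 CPM after 28 days. These are at most 24 counts in a library, and the gene was not tested. Its highest library was 28-day replicate 2, as for Jchain, Irf4 and Derl3.

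**Figure D5:**
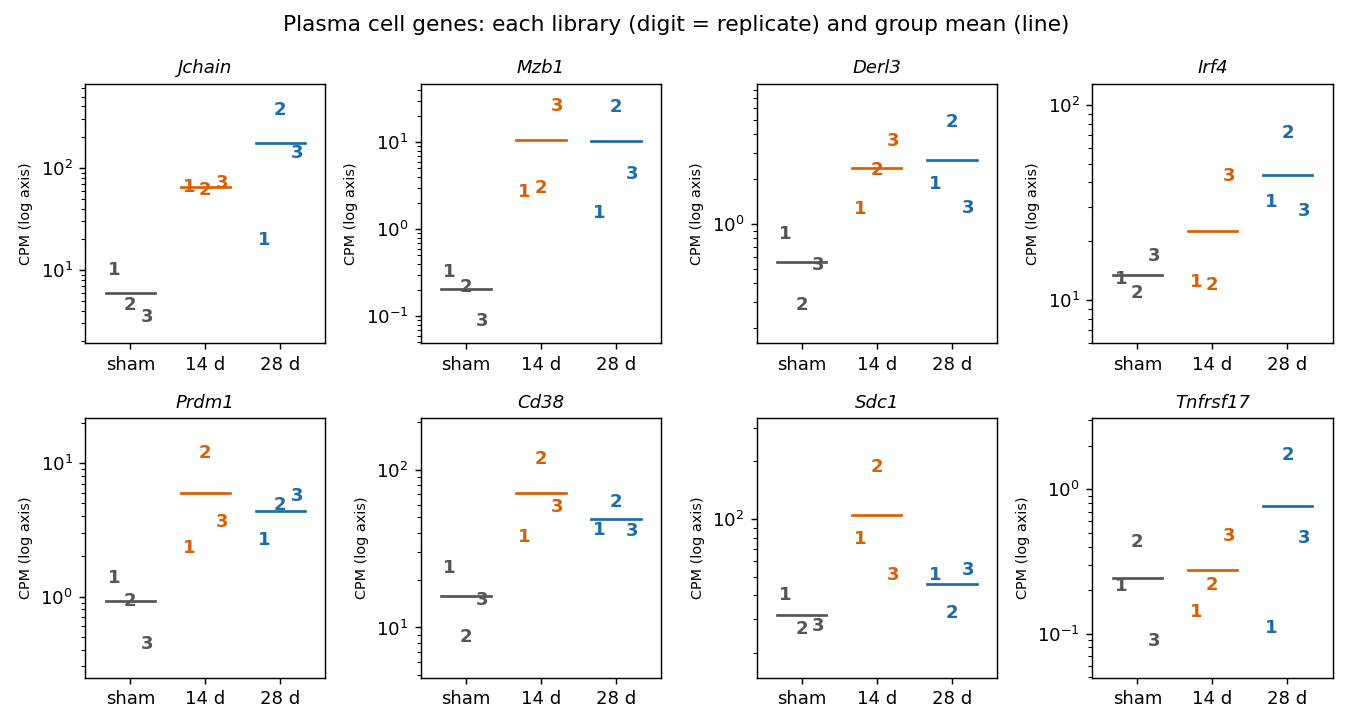
CPM on a log axis for the 8 plasma cell genes in each library, where the digit is the replicate number and the line is the group mean. Jchain is tight at 14 days (60.2 to 70.7 CPM) and wide at 28 days, Mzb1 splits as the B cell genes do, and Prdm1, Cd38 and Sdc1 peak in replicate 2 at 14 days.

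Between 14 and 28 days no member passed edgeR's test at an adjusted p of 0.05, and 9 of the 31 tested members were higher at 28 days. DESeq2 and limma-voom also called 0 members, where DESeq2 called 0.8% of all genes. The median log2 fold change from 14 to 28 days was -0.32 over the B cell genes and -0.03 over the plasma cell genes, beside -0.05 over all genes tested. Its sign for the B cell genes rests on single libraries, at 2.78 without 14-day replicate 3 and -2.17 without 28-day replicate 2. With all libraries, Sdc1 alone had an unadjusted p under 0.05, which 2.27% of all genes had while lower at 28 days. Its log2 fold change was -1.199 ± 0.47 (SE, adjusted p = 0.770 by edgeR's quasi-likelihood test). The highest value was that of Jchain, at 1.44 ± 0.85 (SE, adjusted p = 0.774), followed by Irf4 at 0.97 ± 0.58 (SE, adjusted p = 0.774). Without 14-day replicate 3, 14 members had an edgeR unadjusted p under 0.05. Of these, 13 were higher at 28 days, where 4.02% of all genes were.

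Other genes of the B cell receptor pathway, from a list of 19 that are not members, were also mostly higher with Ang II. At an unadjusted p of 0.05, 16 of the 19 were higher at 14 days, against 13.1% of all genes tested, and 11 at 28 days, against 7.96%, with 0 lower. DESeq2 called 13 and 9 of them higher, against 8.6% and 3.89% of all genes. Genes shared with myeloid cells were among those with the smallest p. Lyn, the kinase that starts the B cell receptor signal, had a log2 fold change of 2.22 ± 0.45 at 14 days, Vav1 3.37 ± 0.74, Pik3ap1 3.23 ± 0.71, Ptpn6 3.47 ± 0.79 and Inpp5d 2.63 ± 0.59, all with an edgeR adjusted p of 0.117. The median of the list was 2.34 at 14 days and 1.62 at 28 days. Of the 19 genes, 9 were highest in the macrophage-rich 14-day replicate 2, among them Lyn, Vav1, Pik3ap1 and Inpp5d. Another 8 were highest in 14-day replicate 3 or 28-day replicate 2. The part of macrophages in this list was not tested.

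Genes of B cell fate and the germinal centre formed a list of 18, of which 12 were tested. At an unadjusted p of 0.05, 8 of the 12 were higher at each time, against 13.1% and 7.96% of all genes tested, and 0 were lower, with list medians of 2.05 at both times. Ikzf1, a lymphoid and myeloid factor, had a log2 fold change of 3.98 ± 1.03 at 14 days, Cd40, the receptor for T cell help, 2.32 ± 0.61, and Cd83 2.2 ± 0.58. Tnfsf13b, which encodes the survival factor BAFF, was at 3.2, 5.29 and 5.87 CPM in the shams, 18.1, 22.7 and 6.79 CPM after 14 days, and 10.2, 9.6 and 11.5 CPM after 28 days. Its highest libraries were 14-day replicates 1 and 2, and 14-day replicate 3, richest in BAFF receptor transcript, had the lowest Ang II value. Cxcl13, the ligand of CXCR5, was at 1.49, 6.94 and 1.07 CPM in the shams, 11.8, 2.02 and 19.6 CPM after 14 days, and 10.3, 72.1 and 10.02 CPM after 28 days. Ebf1, which is also expressed by cells of the vessel wall and fat, had log2 fold changes of -0.46 ± 0.31 and 0.06 ± 0.31.

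The machinery of antibody secretion was nearly level between the groups by its list medians. Of a list of 16 genes, 15 were tested. At an unadjusted p of 0.05, 2 were higher at 14 days, a share near the 13.1% of all genes, namely Pdia4 at 0.76 ± 0.23 and Edem1 at 0.86 ± 0.28, which assist protein folding and disposal. At 28 days 0 were higher and 1 was lower, where 5.89% of all genes were, namely Creb3l2 at -0.93 ± 0.24. Xbp1, the factor that expands secretion in plasma cells and is used by most secretory cells, was at 236, 143 and 145 CPM in the shams, 208, 207 and 157 CPM after 14 days, and 199, 170 and 184 CPM after 28 days. The list medians were 0.19 at 14 days and 0.03 at 28 days. Its sum was 2809 CPM in the macrophage-rich 14-day replicate 2, where 9 of the 16 genes were highest, and 1680 to 2034 CPM in the other libraries. The part of macrophages in this list was not tested. The antibody constant-region genes were looked for by symbol, and 0 were found among the genes that each library lists, so they were not analysed here.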

How the data were processed

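RNA-seq was analysed from 9 libraries of mouse aorta, 3 per group. The values are expected counts per gene, 1 file per library, deposited by the authors, and the unit is taken per the file headers and from the values, since 9.77% to 11.0% of genes per library have a count that is not whole. Per the labels' protocols, RNA extracted with TRIzol was the input for the MGIEasy mRNA library kit. The submitters' processing notes name RSEM 1.3.1, HISAT2 2.2.1 and Bowtie2 2.4.5 with the build GRCm38.p6. Their roles and the strandedness are not given in the sources. Reads from overlapping or antisense genes may therefore be mixed.

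Expected counts were rounded to whole numbers. Entrez IDs were matched to GRCm38.p6 RefSeq for 18775 of 18830 genes. Genes were filtered with filterByExpr, libraries were scaled by TMM, and all 9 were fitted in edgeR 4.0.16 (R 4.3.3) by the robust quasi-likelihood method with 1 coefficient per group. P-values were adjusted by Benjamini-Hochberg over the 14741 genes tested, with a threshold of 0.05. The biological coefficient of variation was 51.3%. Having 3 libraries a group limits the precision, and intervals from counts would cover counting error only. The fit was tested on simulated counts. Alternatives were RLE factors, no filter, a filter of 5 CPM in 3 libraries, DESeq2 1.42.0, limma-voom 3.58.1, the replicate number as a block, the 2 compared groups alone, and leaving out each library. Leaving out 14-day replicate 3 and 28-day replicate 2 together was added after seeing the data.

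The members, gene lists and motifs were chosen with earlier results of these data known, so no list was tested as a set. All members are named, with all 9 values where groups do not overlap or where the gene has the smallest p of its role, and other list genes are those with the smallest p or the role stated. Cxcl13, Xbp1 and Ebf1 were named for their known roles, and some genes of the lists are not reported here by name.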

Additional observations from a re-analysis of the deposited data

How the results depend on the processing

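edgeR called 0 members in each of the 3 comparisons with RLE factors, no filter, the stricter filter, the 2 compared groups alone, every library left out in turn, and both lymphocyte-rich libraries left out, as did limma-voom. DESeq2 called 26 members at 14 days and 23 at 28 days. With the replicate block edgeR also called 0 members. At an unadjusted p of 0.05 by that fit, 18 members were higher at 14 days (10.1% of all genes) and 14 at 28 days (6.65%). Between 14 and 28 days 0 members differed (8.32% of all genes). Same-numbered libraries correlated between -0.553 and 0.646 in their deviations, so the numbers are not taken as pairs. Against sham the B cell median kept its direction in every setting run, from 2.34 (without 14-day replicate 3) to 5.54 at 14 days and from 2.505 (without 28-day replicate 2) to 5.48 at 28 days when 1 library was left out, and it was 2.38 and 2.76 without both lymphocyte-rich libraries. The plasma cell median ran from 1.71 to 2.597 and from 1.498 to 2.64 when 1 library was left out, and the 28-day value was 1.498 without both. The medians of 28 against 14 days changed sign. The B cell median was 0.37 with limma-voom, 0.018 with the replicate block and 0.77 without both libraries, and ran from -2.17 to 2.78 when 1 was left out. The plasma cell median was 0.061 with no filter and 0.073 with limma-voom, and ran from -0.60 to 0.59. Among single genes, Cd24a, Ralgps2 and Irf4 changed sign: without both libraries Ralgps2 was -0.0034 and Irf4 -0.15 at 14 days and Cd24a -0.54 at 28 days. When 1 library was left out, Cd24a ran from -0.52 to 1.79 at 14 days and from -0.55 to 1.79 at 28 days, Ralgps2 from -0.0054 to 3.35 and Irf4 from -0.15 to 1.06 at 14 days. The cause of these changes was not tested. Genes near 0 counts in sham, such as Tnfrsf13c, Vpreb3 and Mzb1, are limited by depth.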

Other observations

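Cr2, Glycam1 and Siglech, which are not members, stood at different levels in the pair of B cell-rich libraries. Cr2, the complement receptor of follicular dendritic cells and mature B cells, was at 37.6 CPM in 14-day replicate 3 and 69.5 CPM in 28-day replicate 2, against at most 5.54 CPM elsewhere. Glycam1, a product of the high endothelial vessels of lymph nodes, was at 16.4 CPM in 14-day replicate 3 and at 32.2 CPM or more in every 28-day library, with 248 CPM in replicate 2, while no sham exceeded 0.426 CPM. Siglech, a marker of plasmacytoid dendritic cells, was at 5.16 CPM in 14-day replicate 3 and 46.3 CPM in 28-day replicate 2, against 0.547 to 5.32 CPM elsewhere. The 6 dividing-cell markers summed to 76.3 and 66.2 CPM in these libraries and were highest, at 164 CPM, in 14-day replicate 2.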
